A study of Homo sapiens with 18 samples.

Results

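Stearate and oleate are fatty acids with the same chain length: stearate is saturated, and oleate carries a single cis double bond. The 3 samples given stearate were compared with the 3 given oleate, both with the DMSO vehicle, in OVCAR5 cells, an established human ovarian cancer cell line without genetic modification. These 6 samples are part of an RNA sequencing experiment on 18 samples, 3 replicates in each of 6 conditions. Cells in stearate+DMSO received 50 µM stearate and DMSO for 24 h, and cells in oleate+DMSO received 50 µM oleate and DMSO for the same time. The other conditions were DMSO without fatty acid, which serves here as the control, and the same 3 states with 1 µM CAY10566, an inhibitor of the desaturase SCD1, in place of DMSO. All media contained FFA-free BSA, the carrier protein, and all cells were of a single line, so a difference in these data is a difference in OVCAR5 cells at a single dose and time. Of the 60483 genes listed, 13799 had a mean of at least 1 TPM over the 6 samples and were tested. TPM is the estimated share of a gene's transcripts among all transcripts, corrected for length and scaled to the same sum in each library, so it can be set side by side between genes but holds no sequencing depth.

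Cells take up both fatty acids, activate them to acyl-CoA and build them into phospholipids, triglycerides and ceramides. SCD1, the product of SCD, places the double bond that turns stearoyl-CoA into oleoyl-CoA. Unsaturated acyl chains keep membranes fluid and enter lipid droplets readily, whereas saturated chains in the membrane of the endoplasmic reticulum (ER) are known to engage the unfolded protein response (UPR), whose 3 sensors are PERK, IRE1 and ATF6. Unsaturated fatty acids are also known to lower the processing of SREBP-1, the transcription factor that drives SCD and other lipid synthesis genes. The comparison of the 2 fatty acids therefore asks which transcripts differ between cells given a saturated chain and cells given its monounsaturated product while SCD1 is not inhibited.

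More genes were lower than higher with stearate. A gene was called when limma gave a Benjamini-Hochberg adjusted p (FDR) under 0.05 and a fold change over a fixed limit on the log2(TPM + 1) scale, which understates the change of genes with low TPM; the smallest fold among the calls was 1.251. By this rule 114 genes (0.826%) were higher and 399 (2.89%) were lower with stearate than with oleate, so that 22.2% of the calls were higher. The median log2 difference of all 13799 genes was -0.032, and rescaling TPM by size factors moved it to 0.0031 and the split to 190 higher and 355 lower genes, or 34.9% higher. The typical called gene differed modestly: the median fold was 1.38 for the higher genes and 1.41 for the lower genes, and 6 and 22 of them exceeded 2-fold. Protein-coding genes made up 93 of the higher and 368 of the lower genes, and lncRNA genes 17 and 19. In all 513 called genes the stearate and oleate samples did not overlap, which is nearly fixed by the call; over all genes tested, every stearate sample lay above every oleate sample in 11.2% and below in 18.7%. By FDR alone, 248 genes (1.8%) were higher and 553 (4.01%) lower. The counts depended on the libraries kept and on the settings of the fit. They were 79 higher and 333 lower without stearate+DMSO replicate 1, 59 and 233 without oleate+DMSO replicate 1, and between 38 and 55 higher and between 127 and 176 lower without any 1 of the other 4 libraries. With all 6 libraries they were 38 and 123 with the replicate number as a block, 50 and 175 without the TPM filter and 64 and 221 without the trend option of limma.

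**Figure D1:**
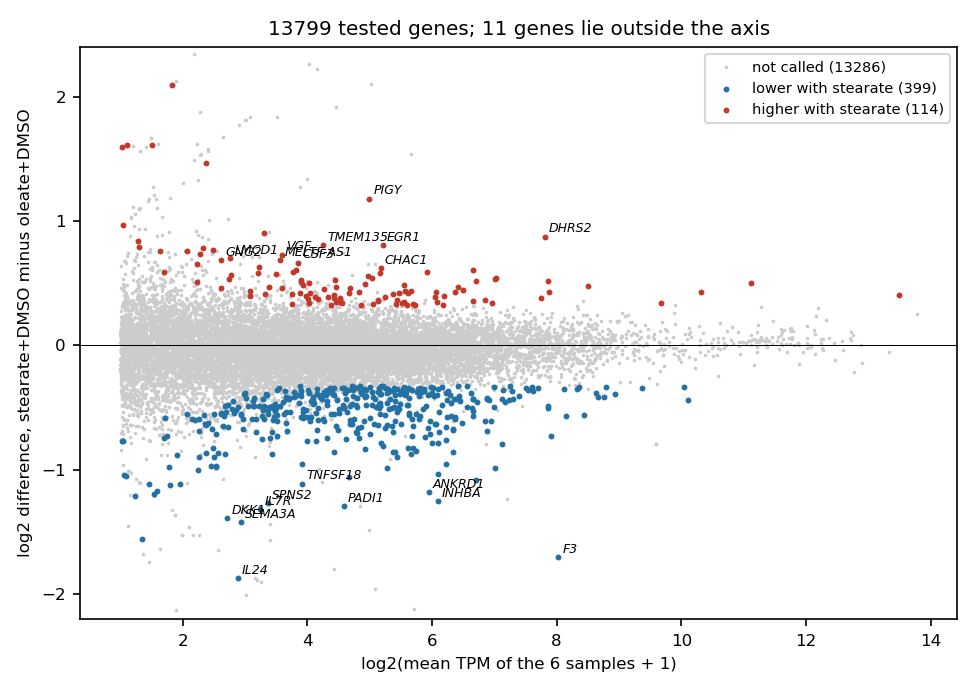
Each point is a tested gene, with log2 of its mean TPM plus 1 over the 6 samples on the x axis and the log2 difference, stearate+DMSO minus oleate+DMSO, on the y axis; the 114 genes called higher are red, the 399 called lower are blue and the rest grey, and 11 genes lie outside the axis. The named blue points reach lower than the named red points reach high, with F3 at -1.70 at a high level of expression.

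Pearson correlations of log2(TPM + 1) across genes were 0.983 to 0.987 between samples of one condition and 0.978 to 0.985 between the conditions, and size factors ran from 0.958, in stearate+DMSO replicate 3, to 1.03. All 10 epithelial markers were tested, and 9 of them averaged at least 5 TPM over the 6 samples. EPCAM was at 323, 339 and 325 TPM with stearate and 340, 349 and 325 TPM with oleate. Of the 8 markers of serous ovarian tumours, WFDC2, PAX8 and FOLR1 were tested, whereas WT1 did not exceed 0.18 TPM, SOX17 did not exceed 0.05 TPM, and MUC16 and MSLN were low, so the labelled tumour type rests on few of its markers here. Endothelial markers summed to at most 1.68 TPM and leukocyte markers to at most 0.75 TPM. The 6 fibroblast markers summed to 4.69 to 7.52 TPM and 1 of them was tested, while COL1A2 and COL3A1 were at 0 in the 6 libraries. The 10 epithelial markers summed to 2752 to 2905 TPM with stearate and to 3228 to 3299 TPM with oleate; 9 of the 10 lay lower with stearate and KRT7 was called, at -0.42 (limma, adjusted p = 0.00144). The 13 mitochondrially encoded mRNAs summed to 42280 to 55860 TPM with stearate and to 35550 to 61530 TPM with oleate, so their spread was wide within both groups. Whether either measure bears on any result that follows was not tested.

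The largest falls, among called genes averaging 5 TPM or more, were those of IL24 and F3. F3 (chr1:94529173-94541759, minus strand; positions are those of GENCODE release 44 on GRCh38), which encodes tissue factor, the initiator of blood coagulation, was at 125, 129 and 111 TPM in the stearate+DMSO samples and at 408, 386 and 398 TPM in the oleate+DMSO samples. The groups lay far apart, and the log2 difference was -1.70 (standard error 0.059, limma, adjusted p = 4.53e-05). The controls, at 364, 381 and 340.3 TPM, were close to the oleate samples. IL24 (chr1:206897443-206904139, plus strand), a cytokine of the IL-10 family that overlaps FCMR on the other strand, was at 2.14, 1.88 and 2.52 TPM in the stearate+DMSO samples and at 10.8, 9.49 and 11.5 TPM in the oleate+DMSO samples. Every stearate sample lay below every oleate sample and every control (8.08, 8.69 and 9.56 TPM), and the log2 difference of -1.87 (standard error 0.12, limma, adjusted p = 0.000629) was the largest among called genes averaging 5 TPM or more. PADI1 (chr1:17205128-17246007, plus strand), a peptidylarginine deiminase of epithelia, was at 12.5, 13.9 and 12.5 TPM in the stearate+DMSO samples and at 32.4, 32.8 and 34.1 TPM in the oleate+DMSO samples. Its log2 difference was -1.29 (standard error 0.067, limma, adjusted p = 0.000213), with controls at 32.7, 34.5 and 31.1 TPM.

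In INHBA, IL7R and TNFSF18 the oleate samples lay above the controls as well. INHBA (chr7:41667168-41705834, minus strand), the subunit of activin A, was at 43.98, 41.3 and 33.6 TPM in the stearate+DMSO samples and at 93.2, 94.2 and 97.7 TPM in the oleate+DMSO samples. The groups did not overlap, and the log2 difference was -1.25 (standard error 0.093, limma, adjusted p = 0.000828). The controls, at 57.5, 49.6 and 51.96 TPM, lay between the fatty acids. IL7R (chr5:35852695-35879603, plus strand), the receptor chain for interleukin 7, showed the same order, with 4.83, 4.18 and 4.25 TPM with stearate and 11.03, 13.5 and 12.9 TPM with oleate against 8.78, 7.63 and 7.65 TPM in the controls and a log2 difference of -1.31 (standard error 0.11, limma, adjusted p = 0.00104) between the fatty acids. TNFSF18 (chr1:173039202-173050941, minus strand), the ligand of the receptor GITR, was at 8.34, 9.54 and 7.92 TPM in the stearate+DMSO samples and at 18.4, 19.8 and 20.9 TPM in the oleate+DMSO samples, a log2 difference of -1.11 (standard error 0.091, limma, adjusted p = 0.00107). The remaining genes among the 10 largest falls were SEMA3A (chr7:83955777-84492724, minus strand), a secreted guidance semaphorin, DKK1 (chr10:52314281-52318042, plus strand), a secreted inhibitor of Wnt signalling, and SPNS2 (chr17:4498881-4539035, plus strand), an exporter of sphingosine-1-phosphate. SEMA3A was at 3.68, 3.16 and 2.65 TPM with stearate and 10.5, 11.1 and 8.74 TPM with oleate, with a log2 difference of -1.42 (standard error 0.13, limma, adjusted p = 0.00154). DKK1 was at 3.21, 1.79 and 2.97 TPM with stearate and 7.84, 9.73 and 7.86 TPM with oleate, with a log2 difference of -1.39 (standard error 0.17, limma, adjusted p = 0.00575). SPNS2 was at 5.4, 5.76 and 3.97 TPM with stearate and 15.2, 11.7 and 13.6 TPM with oleate, with a log2 difference of -1.27 (standard error 0.14, limma, adjusted p = 0.00368). These levels were low in TPM. The oleate samples overlapped the controls, which were at 9.94, 8.05 and 7.06 TPM for SEMA3A, 4.74, 4.66 and 8.27 TPM for DKK1 and 9.78, 12.96 and 11.9 TPM for SPNS2. The calls of all 10 largest falls were kept in each of the 6 leave-one-out fits, which drop 1 library each.

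**Figure D2:**
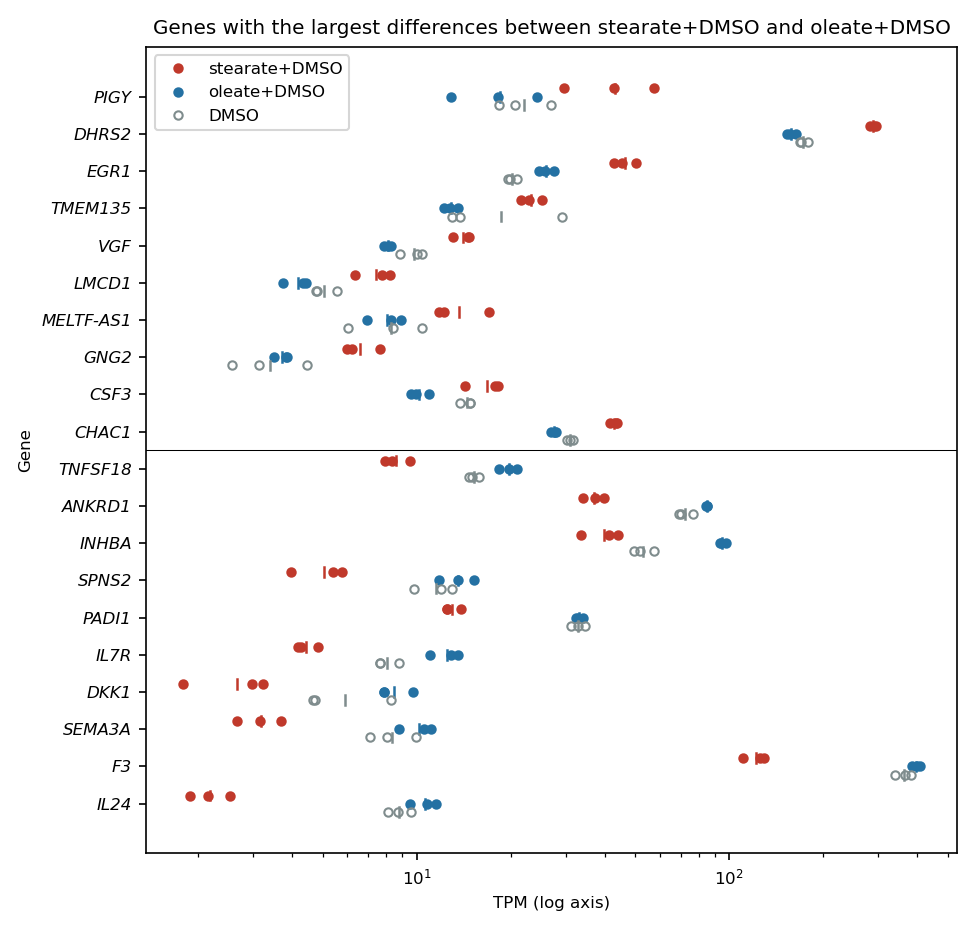
TPM of each sample, on a log axis, for the 10 genes with the largest rises (upper block) and the 10 with the largest falls (lower block) with stearate against oleate, among called genes averaging 5 TPM or more; filled points are stearate+DMSO (red) and oleate+DMSO (blue), open points the DMSO control, and short bars the means of 3 samples. For F3, IL24 and PADI1 the controls sit beside the oleate samples, for INHBA and IL7R they sit between the fatty acids, and for TMEM135 a single control at 29.2 TPM stands apart from the others.

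ANKRD1 (chr10:90912096-90921087, minus strand), an ankyrin-repeat protein known as a target of the transcriptional co-activator YAP and its DNA-binding partners TEAD, was at 39.8, 37.1 and 34.01 TPM in the stearate+DMSO samples and at 84.2, 84.8 and 84.96 TPM in the oleate+DMSO samples. Stearate and oleate samples were fully apart, with controls at 76.8, 70.3 and 68.98 TPM, and the log2 difference was -1.18 (standard error 0.062, limma, adjusted p = 0.000213). In the list of YAP-TEAD targets, 9 of 20 tested members were lower and 0 were higher, with a median of -0.33 against -0.032 for all genes. Of all tested genes 2.89% were lower and 0.826% higher, and these shares are the background for each list that follows. The YAP-TEAD list and its direction were known from earlier results of these data. Besides ANKRD1 and F3, which sits in this list and in that of coagulation, the 9 were CRIM1 (-0.76), a transmembrane BMP antagonist, TGFB2 (-0.67), MYOF (-0.56), the receptor kinase AXL (-0.50), AJUBA (-0.44), AMOTL2 (-0.40) and CCN1 (-0.34). CCN2, a widely used target of the same factors, was not called, at 127, 124 and 121 TPM with stearate and 113, 111 and 114 TPM with oleate (95% interval of the log2 difference 0.049 to 0.23). Over all alternative settings, 6 to 9 members were called lower. TGFB2 and AJUBA, which both overlap another gene on the same strand, were called in 1 and 2 of the 6 leave-one-out fits. AMOTL2, which overlaps RPL39P5 on the same strand, was called in all 6.

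The promoters of ANKRD1 and F3 are shown because these genes carried the largest differences in the YAP-TEAD list. Each sequence is the 250 bases before the gene's start in RefSeq (GRCh38.p14), 5′ to 3′ on the gene's strand. Capitals mark TEAD motifs (GGAATG on either strand) and AP-1 motifs (TGANTCA on either strand), which are bound by the FOS and JUN factors.
ANKRD1 promoter, chr10:90921088-90921337, minus strand: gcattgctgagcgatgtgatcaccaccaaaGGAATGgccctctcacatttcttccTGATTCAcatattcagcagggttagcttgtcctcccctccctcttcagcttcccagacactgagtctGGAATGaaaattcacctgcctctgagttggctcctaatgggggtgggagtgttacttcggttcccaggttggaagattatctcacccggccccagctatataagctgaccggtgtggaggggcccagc
F3 promoter, chr1:94541760-94542009, minus strand: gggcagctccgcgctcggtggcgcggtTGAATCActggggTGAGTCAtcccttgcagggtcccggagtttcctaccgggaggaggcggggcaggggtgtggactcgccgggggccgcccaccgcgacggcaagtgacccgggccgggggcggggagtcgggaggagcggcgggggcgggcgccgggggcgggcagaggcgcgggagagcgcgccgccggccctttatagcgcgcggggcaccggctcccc
The ANKRD1 window held 2 TEAD motifs and 1 AP-1 motif, and the F3 window held 0 TEAD motifs and 2 AP-1 motifs. Among 35116 RefSeq promoter windows of the same length, 11.9% held the TEAD motif and 6.57% the AP-1 motif. A match of letters is a description of the sequence and does not show binding.

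Of 14 tested genes of coagulation and of the plasminogen system, 4 were called lower and 0 higher, and by FDR alone 8 were lower and 1 higher, with a median of -0.26. PLAT, which encodes tissue plasminogen activator, was at 38.3, 38.1 and 33 TPM in the stearate+DMSO samples and at 62.4, 66.1 and 66.96 TPM in the oleate+DMSO samples, with controls at 63.5, 68.6 and 60.2 TPM. The stearate samples lay below all others, and the log2 difference was -0.82 (standard error 0.069, limma, adjusted p = 0.00111). THBD, which encodes thrombomodulin, a brake on thrombin, had a log2 difference of -0.45 (limma, adjusted p = 0.0018), and F2R, the thrombin receptor, one of -0.39 (limma, adjusted p = 0.0259). F2R was called in 0 of the 6 leave-one-out fits (-0.44 to -0.34), which left 3 members called lower in each.

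Inflammatory cytokines and their regulators moved both ways: of 19 tested members, 5 were lower and 2 higher, with a median of 0.021. IL1B (chr2:112829751-112836816, minus strand), interleukin 1 beta, was at 99.95, 97.6 and 104 TPM in the stearate+DMSO samples and at 174, 179 and 172 TPM in the oleate+DMSO samples, against 174, 183 and 185 TPM in the controls. The oleate samples overlapped or lay just below the controls, the stearate samples were lower, and the log2 difference was -0.80 (standard error 0.041, limma, adjusted p = 0.000213). TNFAIP3, the NF-kappaB inhibitor A20, IL6 and IL1A were also lower, by log2 differences of -0.66, -0.53 and -0.33, and were called in 1, 6 and 4 of the 6 leave-one-out fits. CSF3 (chr17:40015361-40017813, plus strand), the granulocyte colony-stimulating factor, went the other way, at 18.3, 14.2 and 17.8 TPM in the stearate+DMSO samples and at 10.9, 9.95 and 9.55 TPM in the oleate+DMSO samples. No sample of one group reached the other group, with a log2 difference of 0.67 (standard error 0.11, limma, adjusted p = 0.0167); its call was lost without stearate+DMSO replicate 3 (0.62), oleate+DMSO replicate 2 (0.65) or oleate+DMSO replicate 3 (0.63), and its adjusted p reached 0.0721 over all settings. CXCL3, a neutrophil chemokine, was also higher (0.55 (limma, adjusted p = 0.00172)). Without oleate+DMSO replicate 2, 3 members of the list were called lower.

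EGR1 (chr5:138465479-138469303, plus strand), a zinc-finger factor transcribed within minutes of growth factor and ERK signalling, was at 50.4, 42.8 and 45.5 TPM in the stearate+DMSO samples and at 25.7, 27.6 and 24.6 TPM in the oleate+DMSO samples. All stearate samples lay above all oleate samples, which in turn lay above the controls (20.9, 19.9 and 19.5 TPM), and the log2 difference was 0.81 (standard error 0.076, limma, adjusted p = 0.00154). It was the only member called higher among 34 tested immediate-early and ERK output genes, of which 3 were called lower, with a median of -0.079. ETS1 (chr11:128458761-128587558, minus strand), a transcription factor activated by ERK, was at 75.5, 71.6 and 60.8 TPM in the stearate+DMSO samples and at 108, 109.8 and 103 TPM in the oleate+DMSO samples. The stearate samples were near the controls (65.3, 62.9 and 66.7 TPM) and the oleate samples lay above both, with a log2 difference of -0.63 (standard error 0.079, limma, adjusted p = 0.00588) between the fatty acids. MYC (-0.35) and the EGF-family ligand TGFA (-0.42) were the other members called lower, MYC in 5 and TGFA in 2 of the 6 leave-one-out fits.

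The EGR1 promoter is shown because serum response elements control this gene. Capitals mark CArG boxes, the core of such elements, in the 250 bases before the start in RefSeq (GRCh38.p14).
EGR1 promoter, chr5:138465229-138465478, plus strand: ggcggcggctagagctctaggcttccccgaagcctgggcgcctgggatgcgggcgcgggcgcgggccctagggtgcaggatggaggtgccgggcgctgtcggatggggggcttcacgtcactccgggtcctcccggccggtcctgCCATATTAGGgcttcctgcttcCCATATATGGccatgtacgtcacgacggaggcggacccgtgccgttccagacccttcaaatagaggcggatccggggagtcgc
The window held 2 CArG boxes, which 1.16% of the 35116 promoter windows held at least once. The other 2 promoters printed here held 0 of them.

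Among called genes averaging 5 TPM or more, the largest rises were smaller than the largest falls, and several rested on scattered values. DHRS2 (chr14:23630115-23645639, plus strand), a short-chain dehydrogenase, was at 282, 291 and 295 TPM in the stearate+DMSO samples and at 153, 156 and 163 TPM in the oleate+DMSO samples. Its replicates were tight, the controls (169, 168 and 179 TPM) lay just above the oleate samples, and the log2 difference was 0.88 (standard error 0.040, limma, adjusted p = 0.000184). VGF (chr7:101162509-101165569, minus strand), a precursor of secreted neuropeptides, was at 14.7, 14.6 and 13.03 TPM in the stearate+DMSO samples and at 7.88, 8.09 and 8.3 TPM in the oleate+DMSO samples, a log2 difference of 0.73 (standard error 0.080, limma, adjusted p = 0.00317). TMEM135 (chr11:87037844-87328824, plus strand), a transmembrane protein gene, was at 25.1, 21.6 and 22.9 TPM in the stearate+DMSO samples and at 12.2, 13.6 and 12.8 TPM in the oleate+DMSO samples, a log2 difference of 0.81 (standard error 0.079, limma, adjusted p = 0.00202), but its controls were spread over 29.2, 13.7 and 13 TPM. Each of the 3 genes was called in all 6 leave-one-out fits. PIGY (chr4:88520998-88523776, minus strand), a subunit of the enzyme that starts GPI anchor synthesis, was at 57.4, 42.6 and 29.7 TPM in the stearate+DMSO samples and at 12.9, 18.2 and 24.2 TPM in the oleate+DMSO samples. The groups approached each other closely, the log2 difference of 1.18 (standard error 0.27, limma, adjusted p = 0.0445) was called in 0 of the 6 leave-one-out fits (0.96 to 1.42, adjusted p up to 0.144), and PIGY shares exons with PYURF on the same strand, so its TPM is uncertain.

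The other genes among the 10 largest rises at this level and without overlap were CHAC1, described with the UPR, and 3 genes of low TPM. LMCD1 (chr3:8501807-8574668, plus strand), a LIM-domain protein gene, was at 8.21, 6.35 and 7.72 TPM with stearate and 4.32, 4.41 and 3.73 TPM with oleate, with a log2 difference of 0.71 (standard error 0.12, limma, adjusted p = 0.0197). GNG2 (chr14:51826195-51979342, plus strand), a G protein gamma subunit, was at 6.2, 5.98 and 7.63 TPM with stearate and 3.81, 3.84 and 3.49 TPM with oleate, with a log2 difference of 0.68 (standard error 0.12, limma, adjusted p = 0.0197). Both kept their call in 1 of the 6 leave-one-out fits, LMCD1 without stearate+DMSO replicate 2 and GNG2 without stearate+DMSO replicate 1, and their log2 differences ran from 0.64 to 0.80 and from 0.59 to 0.74. The antisense RNA gene MELTF-AS1 (chr3:196999460-197004744, plus strand) was at 12.3, 11.8 and 16.98 TPM with stearate and 8.29, 6.92 and 8.93 TPM with oleate, with a log2 difference of 0.69 (standard error 0.15, limma, adjusted p = 0.0391) that was called in 0 of those fits. It overlaps MELTF on the other strand. The libraries were stranded, but the strand setting of the counting is not given in the sources used here, so the reads of both genes may not be told apart. Other named genes carry the same doubt, among them IL24, which overlaps FCMR, and TMEM135, LMCD1 and GNG2, which overlap unnamed genes.

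SCD itself, the gene of the enzyme that converts stearate to oleate, differed between the fatty acids. SCD (chr10:100347233-100364826, plus strand) was at 169.9, 152 and 131 TPM in the stearate+DMSO samples and at 104, 107 and 99.9 TPM in the oleate+DMSO samples. The groups did not overlap and the oleate samples were the lowest of all, with controls at 185, 183 and 167 TPM. The log2 difference between the fatty acids was 0.54 (standard error 0.087, limma, adjusted p = 0.0169). Against DMSO, it was -0.25 with stearate (limma, adjusted p = 0.0681) and -0.78 with oleate (limma, adjusted p = 0.00146). The call between the fatty acids was lost without stearate+DMSO replicate 2 (0.53) and without any 1 of the oleate+DMSO libraries (0.51 to 0.56), and its adjusted p reached 0.0809 over all settings.

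TECR and ME1, further genes of lipid synthesis, were also lowest in the oleate samples, but their stearate samples lay above the controls. In fatty acid desaturation and elongation, SCD and TECR were the 2 of 14 tested members called higher, 0 were lower, and the median was 0.0019. TECR (chr19:14517085-14565980, plus strand), the reductase of the last step of elongation, was at 104, 102 and 102 TPM in the stearate+DMSO samples and at 78.5, 75.3 and 71.8 TPM in the oleate+DMSO samples, a log2 difference of 0.45 (standard error 0.047, limma, adjusted p = 0.00258). In fatty acid synthesis, ME1 (chr6:83210402-83431051, minus strand), the malic enzyme that supplies NADPH, was the 1 of 7 members called, at 27.98, 28.7 and 30.01 TPM in the stearate+DMSO samples and at 20.6, 20.6 and 20.96 TPM in the oleate+DMSO samples with a log2 difference of 0.46 (standard error 0.057, limma, adjusted p = 0.00557). ACACA, the acetyl-CoA carboxylase of the committed step, was not called; its values, 16.7, 11.96 and 13.8 TPM with stearate and 16.4, 14.5 and 20.7 TPM with oleate, overlapped, and the 95% interval of its log2 difference was -0.61 to 0.087.

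Cholesterol synthesis genes lay mostly above the oleate level with stearate. Of 21 tested members, 17 had a difference above 0, as had 42.9% of all genes, 5 had an FDR under 0.05 and 2 were called higher, 0 were called lower, and the median was 0.14. The members called, TM7SF2 and DHCR7, both encode sterol reductases near the end of the pathway. DHCR7 (chr11:71428193-71452868, minus strand) was at 86.2, 83.7 and 77.6 TPM in the stearate+DMSO samples and at 61.6, 63.2 and 62.4 TPM in the oleate+DMSO samples, against 93.5, 90.1 and 85.8 TPM in the controls. Samples of the 2 groups stayed apart and the oleate samples were the lowest, with a log2 difference of 0.40 (standard error 0.051, limma, adjusted p = 0.00677). TM7SF2 (chr11:65111845-65116384, plus strand), which overlaps VPS51 on the same strand, had a log2 difference of 0.43 (standard error 0.053, limma, adjusted p = 0.00557). With size factors, 4 members of the list were called higher. Among 12 tested SREBP regulators and sterol uptake genes, INSIG1 (chr7:155297776-155310235, plus strand), which holds the SREBP escort SCAP in the ER, was the 1 member called, at 58.8, 56.99 and 50.4 TPM in the stearate+DMSO samples and at 44.6, 39.5 and 39.3 TPM in the oleate+DMSO samples. The oleate samples were below the stearate samples and the controls (64.5, 64.4 and 57.1 TPM), and the log2 difference was 0.42 (standard error 0.077, limma, adjusted p = 0.024); its call was kept without stearate+DMSO replicate 3 (0.49) or oleate+DMSO replicate 1 (0.48) and lost without any 1 of the other 4 libraries (0.38 to 0.40). The median of this list was 0.057.

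**Figure D3:**
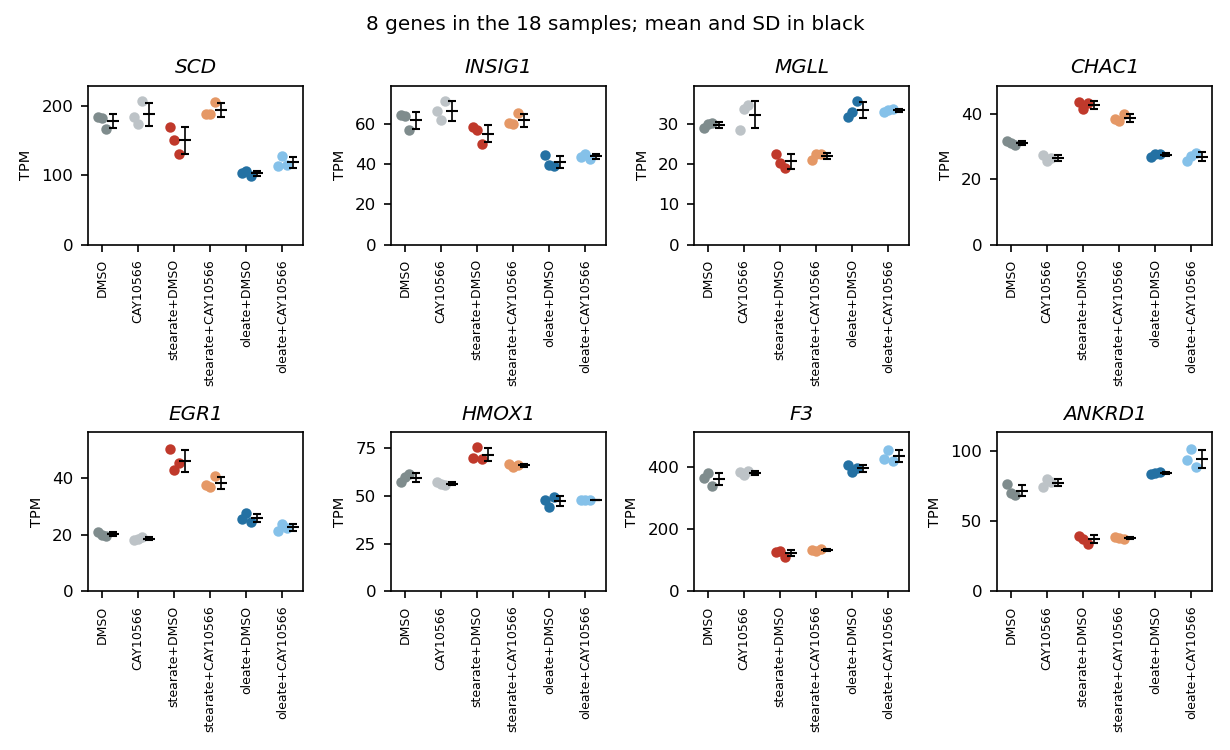
TPM of 8 genes in the 18 samples, 3 points per condition with the mean and SD (n = 3) in black beside them, on axes that start at 0. SCD and INSIG1 are lowest in the 2 oleate conditions, MGLL, F3 and ANKRD1 are lowest in the 2 stearate conditions, and CHAC1, EGR1 and HMOX1 are highest in the 2 stearate conditions.

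Among genes of fatty acid oxidation, lipid droplets and phospholipids, few members were called. Among 25 tested PPAR targets and oxidation genes, SLC25A20, the mitochondrial carrier of acylcarnitines, and DECR1, a reductase in the oxidation of polyunsaturated chains, were called higher, and 0 were lower. Of the 25, 18 had a difference above 0, as had 42.9% of all genes. By FDR alone 4 were higher and 0 lower, and the median was 0.13. SLC25A20 was at 6.03, 6.14 and 5.99 TPM in the stearate+DMSO samples and at 3.73, 4.64 and 4.07 TPM in the oleate+DMSO samples. Again no values overlapped, and the log2 difference was 0.46 (standard error 0.10, limma, adjusted p = 0.0459). DECR1 was at 38.04, 34.7 and 35.6 TPM with stearate and 29.9, 29.4 and 26.4 TPM with oleate, with a log2 difference of 0.33 (standard error 0.068, limma, adjusted p = 0.0338). Both calls were lost in each of the 6 leave-one-out fits, with differences of 0.40 to 0.53 and 0.28 to 0.36. CPT1A, which admits fatty acids to mitochondria, was not called, with a 95% interval of -0.30 to 0.16, and PDK4, a kinase that fatty acids are known to raise through PPAR, was not tested, at 0.43, 0.49 and 0.48 TPM with stearate and 0.53, 0.39 and 0.36 TPM with oleate.

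In the list of lipid droplets, triglyceride synthesis and lipolysis, 1 of 20 tested members was higher and 1 lower. MGLL (chr3:127689062-128052190, minus strand), the lipase that releases fatty acid from monoacylglycerol, was at 22.6, 20.3 and 19.01 TPM in the stearate+DMSO samples and at 31.6, 32.9 and 35.6 TPM in the oleate+DMSO samples. The stearate samples lay below all oleate samples and controls (28.9, 29.9 and 30.2 TPM), and the log2 difference was -0.67 (standard error 0.080, limma, adjusted p = 0.00488). ACSL3, an acyl-CoA synthetase of nascent droplets, was at 114, 117 and 106 TPM with stearate and 78.7, 94.1 and 89.8 TPM with oleate, with a log2 difference of 0.36 (standard error 0.072, limma, adjusted p = 0.0314) that was lost in each leave-one-out fit (0.28 to 0.41). PLIN2, a droplet coat protein, did not reach the limit of 1 TPM and was not tested, at 0.25, 0.2 and 0.21 TPM with stearate and 0.54, 0.15 and 0.12 TPM with oleate; whether this level depends on the annotation used for counting was not tested. PLIN3, another coat protein, was at 76.1, 69.7 and 64.5 TPM with stearate and 66.6, 66.7 and 73.2 TPM with oleate. Its groups overlapped, with a 95% interval of -0.14 to 0.19. Of 27 genes of phospholipid remodelling and membrane fluidity, LPCAT1 (chr5:1456480-1523962, minus strand), which places saturated chains on lysophosphatidylcholine, was the 1 called, lower with stearate at 24.98, 21.1 and 20.1 TPM with stearate and 34.8, 30.4 and 29.3 TPM with oleate. The controls (24.9, 21.9 and 20.6 TPM) were close to the stearate samples, and the log2 difference of -0.50 (standard error 0.10, limma, adjusted p = 0.0294) was called in 1 of the 6 leave-one-out fits, that without stearate+DMSO replicate 1 (-0.59 to -0.42 over the 6). The medians of both lists, -0.034 and -0.038, turned to just above 0 after rescaling by size factors.

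NRF2 targets and iron genes held the most calls upward. Of 25 tested members, 7 were higher and 1 lower, where 0.826% of all genes were higher and 2.89% lower, with a median of 0.10. HMOX1 (chr22:35380361-35394214, plus strand), heme oxygenase 1, was at 69.8, 75.6 and 69.6 TPM in the stearate+DMSO samples and at 48.1, 44.3 and 49.7 TPM in the oleate+DMSO samples. The groups did not overlap, the controls lay between them at 57.2, 60.1 and 61.8 TPM, and the log2 difference was 0.59 (standard error 0.061, limma, adjusted p = 0.00245). OSGIN1 (chr16:83931311-83966332, plus strand), an oxidative stress response gene that overlaps MLYCD on the same strand, was at 24.2, 23.9 and 25.8 TPM in the stearate+DMSO samples and at 16.1, 17.04 and 17.2 TPM in the oleate+DMSO samples, a log2 difference of 0.53 (standard error 0.064, limma, adjusted p = 0.00521). Others called higher included SRXN1 (0.52), which restores oxidised peroxiredoxins and overlaps an unnamed gene on the same strand, GCLM (0.43), a subunit of the enzyme that starts glutathione synthesis, FTL (0.41), the ferritin light chain, and NQO1 (0.34), a quinone reductase. AKR1C2 was the member called lower (-0.41 (limma, adjusted p = 0.0326)), but it has near-identical family members among which reads can be split, so its value is uncertain, and it was called in 1 of the 6 leave-one-out fits, as was GCLM. Over all alternative settings, 6 to 8 members of the list were called higher and 0 to 2 lower.

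For the UPR, differences were small and most fell short of the fold limit. In the PERK-ATF4 arm, 3 of 38 tested members were higher and 1 lower, with a median of 0.058. CHAC1 (chr15:40952962-40956512, plus strand), a glutathione-degrading enzyme induced by ATF4, was at 43.7, 41.5 and 43.4 TPM in the stearate+DMSO samples and at 26.9, 27.8 and 27.7 TPM in the oleate+DMSO samples. Both sets of samples were separate, with controls at 31.6, 30.97 and 30.4 TPM, and the log2 difference was 0.62 (standard error 0.052, limma, adjusted p = 0.00108); it was called in all 6 leave-one-out fits. SESN2 (0.33), a stress-induced sestrin that is also in the p53 list, and ATF5 (0.34) were the others called higher, and CHAC1 was the 1 member still called higher in each leave-one-out fit. STC2, a secreted glycoprotein, was lower, at 86.01, 81.7 and 75.8 TPM with stearate and 111, 109 and 127 TPM with oleate. The controls (88.9, 90.5 and 89.6 TPM) were near the stearate samples, and the log2 difference of -0.50 (standard error 0.071, limma, adjusted p = 0.0104) lost its call without stearate+DMSO replicate 2 (-0.51).

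ATF4 (chr22:39519695-39522683, plus strand), the transcription factor of the PERK arm, was at 619, 612 and 606 TPM in the stearate+DMSO samples and at 518, 514 and 517 TPM in the oleate+DMSO samples. The values of the groups did not meet, and its log2 difference of 0.25 (standard error 0.028, limma, adjusted p = 0.00402) was under the fold limit. DDIT3 (chr12:57516588-57521737, minus strand), which encodes the pro-apoptotic factor CHOP and overlaps an unnamed gene on the same strand, was at 161, 152 and 167 TPM in the stearate+DMSO samples and at 137, 138 and 130.1 TPM in the oleate+DMSO samples. These groups did not overlap either, and the log2 difference of 0.25 (standard error 0.047, limma, adjusted p = 0.0273) was also under the fold limit, with an adjusted p of up to 0.105 over all settings. XBP1 (chr22:28794555-28800597, minus strand), the target of IRE1 splicing, had a total transcript level of 192, 186 and 183 TPM with stearate and 171, 172 and 169 TPM with oleate. Its log2 difference was 0.13 (limma, adjusted p = 0.0827), with an interval of 0.044 to 0.21; the spliced form cannot be read from gene values. For the sensors, no difference was called: the 95% intervals were -0.28 to 0.10 for ATF6, -0.37 to 0.068 for ERN1, which encodes IRE1, and -0.11 to 0.49 for EIF2AK3, which encodes PERK.

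In the IRE1-XBP1 arm, 1 of 30 tested members was called higher, with a median of 0.039. This was SEC24D, a cargo adaptor of the COPII coat, at 14.9, 14.6 and 13.9 TPM with stearate and 9.47, 11.5 and 10.8 TPM with oleate; its log2 difference of 0.42 (standard error 0.088, limma, adjusted p = 0.0366) was lost in each of the 6 leave-one-out fits (0.34 to 0.47). In the ATF6 arm, 0 of 20 were called and 2 had an FDR under 0.05, both higher, with a median of 0.035. HERPUD1, of ER-associated degradation, was at 115, 110.4 and 111 TPM with stearate and 89.2, 89.8 and 91.2 TPM with oleate. Its log2 difference of 0.31 (standard error 0.040, limma, adjusted p = 0.00603) was just under the fold limit, and it was called with size factors and in 3 of the 6 leave-one-out fits (0.32 to 0.33). HSPA5, the ER chaperone BiP, was at 569, 603 and 559.5 TPM with stearate and 464, 497 and 480.2 TPM with oleate, a log2 difference of 0.26 (limma, adjusted p = 0.0152). Among 23 cytosolic heat shock genes DNAJB4, a cochaperone, was the 1 called, at 12.9, 13.6 and 10.7 TPM with stearate and 6.7, 8.76 and 8.67 TPM with oleate. Its log2 difference was 0.57 (standard error 0.13, limma, adjusted p = 0.042) but was called in 0 of the 6 leave-one-out fits, and it overlaps GIPC2 on the same strand. HSPA1A (0.36, adjusted p = 0.0696 by limma) was not called and has a near-identical copy, HSPA1B, so its reads are uncertain.

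Few genes of cell death, the DNA damage response and growth were called, as was so of all genes (0.826% higher and 2.89% lower). Of 32 tested apoptosis effectors 0 were called in either direction, and 1 had an FDR under 0.05, lower with stearate, with a median of -0.064. H2AX (chr11:119093874-119095465, minus strand), the histone variant that is phosphorylated at DNA breaks, was at 117, 115 and 106 TPM with stearate and 91.5, 89.4 and 104 TPM with oleate. Its groups did not overlap and its log2 difference was 0.25 (limma, adjusted p = 0.0744), which did not pass the test. Among 24 p53 targets SESN2 was the 1 called, with a median of 0.074, and CDKN1A, the cell cycle inhibitor p21, had a log2 difference of 0.18 (limma, adjusted p = 0.0451), under the fold limit. Of 48 DNA replication genes 0 were called, with a median of -0.0014. ORC1, of the origin recognition complex, was at 7.53, 7.33 and 7.22 TPM with stearate and 5.21, 5.65 and 6.36 TPM with oleate, a log2 difference of 0.31 (limma, adjusted p = 0.103).

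Among genes of the secretory pathway and the cilium, 1 of 42 Golgi coat and tether genes, 1 of 18 COPII genes and 0 of 49 cilium assembly genes were called. Calls were few among all genes too, at 0.826% higher and 2.89% lower. The Golgi member was COPG1 (chr3:129249606-129277773, plus strand), a COPI coat subunit, at 73.95, 74.97 and 77.7 TPM in the stearate+DMSO samples and at 52.7, 59.3 and 55.9 TPM in the oleate+DMSO samples. The groups did not overlap, and the log2 difference was 0.43 (standard error 0.055, limma, adjusted p = 0.00677). The COPII member was SEC24D. The medians were -0.052, 0.017 and 0.061 in the order named. Of 78 cytosolic ribosomal protein genes and 75 genes of the respiratory chain and ATP synthase, 0 were called, with medians of 0.043 and 0.056. By FDR alone 8 and 9 were higher with stearate and 0 lower, where 1.8% of all genes were higher. RPL28 was at 4810, 4921 and 5043 TPM with stearate and 4398, 3894 and 4259 TPM with oleate, a log2 difference of 0.24 (limma, adjusted p = 0.0288), and NDUFA3, a subunit of complex I, was at 370.3, 365 and 376 TPM with stearate and 315, 296 and 326 TPM with oleate, a difference of 0.25 (limma, adjusted p = 0.0199). Both had an FDR under 0.05 in 1 of the 6 leave-one-out fits. With the dependence on transcript length and GC removed within each library, these medians were -0.0029 and 0.0089. Of 13 mitochondrially encoded mRNAs 0 were called, and MT-ND3 had an interval of 0.067 to 0.53.

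**Figure D4:**
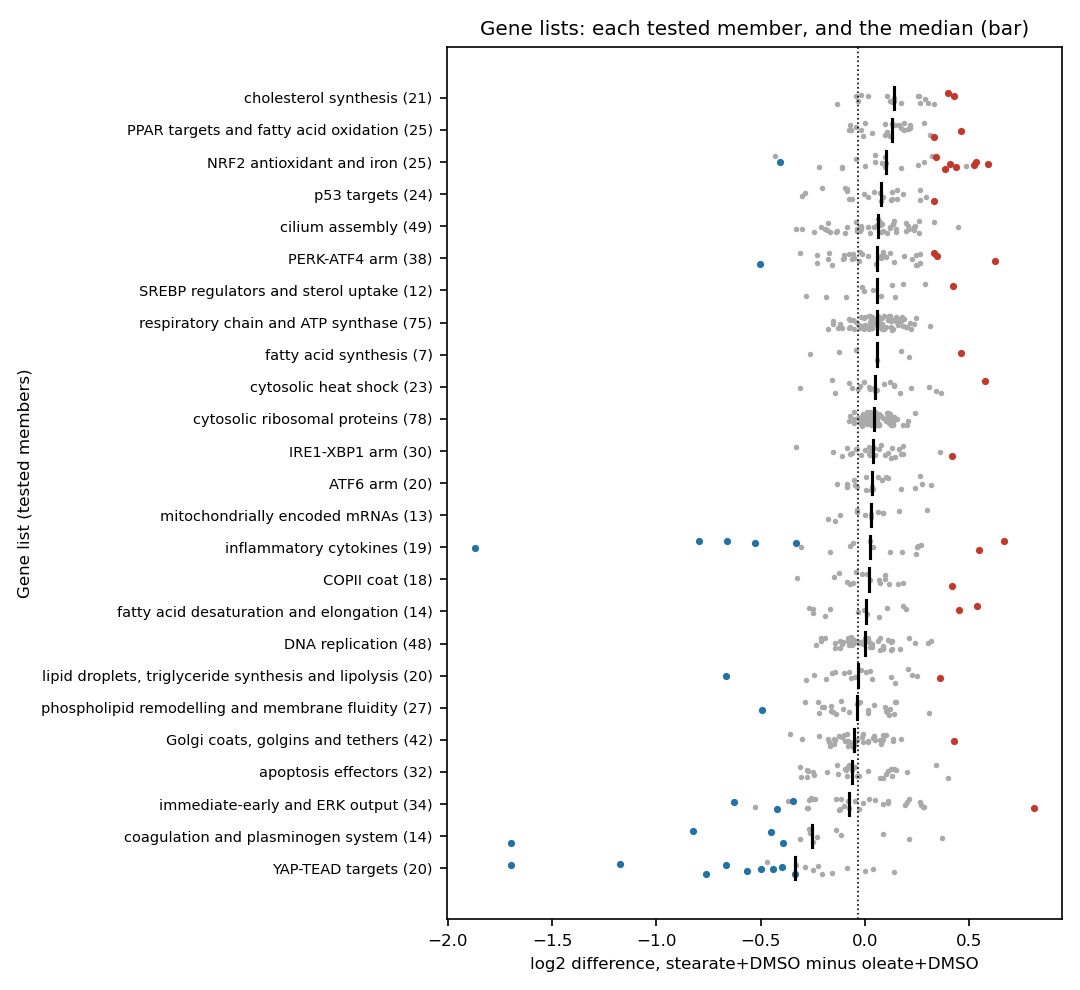
Log2 difference, stearate+DMSO minus oleate+DMSO, of each tested member of the 25 gene lists, ordered by their medians (black bars); red and blue points were called higher and lower, grey points were not called, and the dotted line is the median of all genes, -0.032. The YAP-TEAD and coagulation lists have the lowest medians, with F3 in both, the NRF2 list holds 7 red points, and most lists centre near the dotted line.

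The controls show on which side a difference lay, although both comparisons share the 3 DMSO samples and so are not independent. Against DMSO, 899 genes (6.51%) were higher and 262 (1.9%) lower with stearate, and 1906 (13.8%) were higher and 112 (0.812%) lower with oleate. These splits depended on the scale: the median log2 difference of all genes was 0.09 with stearate and 0.11 with oleate as deposited, and 0.0065 and -0.0015 after rescaling by size factors, which gave 398 higher and 448 lower genes with stearate and 840 and 418 with oleate. They depended on single libraries too: the 899 ran from 337 without stearate+DMSO replicate 1, 355 without DMSO replicate 2, 373 without stearate+DMSO replicate 2 and 554 without DMSO replicate 3 to 1281 without stearate+DMSO replicate 3, and the 262 fell to 147 without DMSO replicate 2 and 160 without stearate+DMSO replicate 2. The 1906 fell to 1269 without DMSO replicate 2. F3 differed from DMSO by -1.56 with stearate (limma, adjusted p = 2.9e-06) and by 0.14 with oleate (limma, adjusted p = 0.125). IL24 differed by -1.62 with stearate (limma, adjusted p = 6.93e-05) and by 0.25 with oleate (limma, adjusted p = 0.127), and IL1B by -0.84 with stearate (limma, adjusted p = 7.5e-06) and by -0.044 with oleate (limma, adjusted p = 0.435). In these 3 genes the stearate samples moved and the oleate samples were not called. The reverse held for DHCR7, at -0.12 with stearate (limma, adjusted p = 0.118) and -0.52 with oleate (limma, adjusted p = 0.00146), and for ETS1, at 0.087 with stearate (limma, adjusted p = 0.425) and 0.71 with oleate (limma, adjusted p = 0.00146). INHBA moved in opposite directions, at -0.42 with stearate (limma, adjusted p = 0.0173) and 0.83 with oleate (limma, adjusted p = 0.00153). The differences of DHCR7, ETS1 and INHBA with oleate were all larger than the shift of 0.11 in the median of all genes.

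The samples with CAY10566 gave a second comparison of the fatty acids in other libraries. Between stearate+CAY10566 and oleate+CAY10566, 58 of the same 13799 genes (0.42%) were higher and 283 (2.05%) lower with stearate; with 1 library left out these counts fell to between 15 and 27 and to between 89 and 204, so the shares that follow rest on unsteady counts. Of the 114 genes called higher with DMSO, 106 (93.0%) were also higher with CAY10566, where 41.0% of all genes were, and 29 were called, which is 25.4% of the DMSO calls and 50% of the CAY10566 calls. Of the 399 called lower, 388 (97.2%) were also lower, where 58.7% of all genes were, and 191 were called, which is 47.9% and 67.5% of the calls. No gene was called in opposite directions. The median differences were 0.46 and 0.31 for the genes higher with DMSO, and -0.50 and -0.40 for those lower, in DMSO and in CAY10566. The genes were chosen by their DMSO values, so these medians were not compared by a test.

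**Figure D5:**
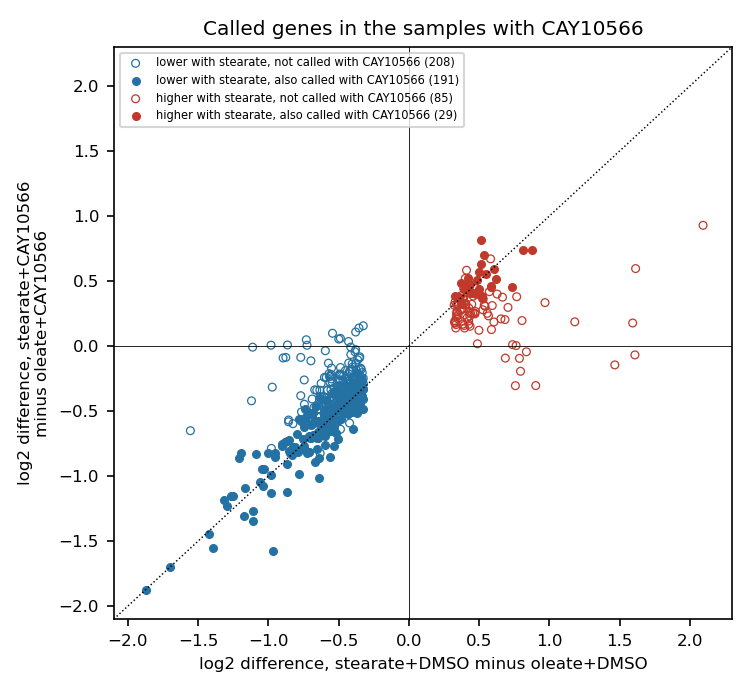
Log2 difference between stearate and oleate in the DMSO samples (x axis) and in the CAY10566 samples (y axis) for the 513 genes called with DMSO; filled points were also called with CAY10566, open points were not, and the dotted line marks equal differences. The large falls lie along the line, while several of the rises over 1 on the x axis lie near 0 on the y axis.

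Large falls were also called with CAY10566, at -1.70 (limma, adjusted p = 3.11e-05) for F3, -1.88 (limma, adjusted p = 0.00331) for IL24, -1.30 (limma, adjusted p = 0.000722) for ANKRD1 and -1.15 (limma, adjusted p = 0.00331) for INHBA. Called higher there too were SCD, at 0.70 (limma, adjusted p = 0.00365), EGR1, at 0.74 (limma, adjusted p = 0.00411), and DHRS2, at 0.74 (limma, adjusted p = 0.00217). In the YAP-TEAD list 9 members were lower and 0 higher, with a median of -0.32; AJUBA was not called there, and NUAK2 was. In cholesterol synthesis 5 of 21 were higher and 0 lower, with a median of 0.24. In coagulation 5 of 14 were lower and 0 higher, with a median of -0.24. Other lists held less well. Of 25 NRF2 and iron genes 3 were higher and 0 lower, with a median of 0.052. Of 25 PPAR targets and oxidation genes 0 were called, with a median of 0.13. The medians of the PERK-ATF4 arm and the cytokines were below 0 there, at -0.014 and -0.037. Other rises did not recur as calls: TMEM135 was at 0.20 (limma, adjusted p = 0.39), PIGY at 0.19 (limma, adjusted p = 0.799) and MELTF-AS1 at -0.093 (limma, adjusted p = 0.843). The test of the difference itself, the interaction of fatty acid and inhibitor in limma, called 0 of 13799 genes (0%) at an FDR under 0.05, with 493 (3.57%) at an unadjusted p under 0.05. For TMEM135 the difference between CAY10566 and DMSO was -0.61 (95% interval -0.92 to -0.29, limma, adjusted p = 1.00), and for F3 its interval was -0.17 to 0.17. For SCD the interval was -0.082 to 0.42.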

How the data were processed

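Total RNA was extracted with an RNeasy Micro kit, TruSeq stranded mRNA libraries were made, and 100 bp paired-end reads were sequenced. The authors trimmed reads with Trim Galore, aligned them with STAR 2.7.1a to GRCh38 (Ensembl release 99 by the methods) and quantified genes with RSEM. The deposited table holds TPM per gene, with the same sum in each sample; depth is unknown, so precision comes from replicates. Cells were treated in triplicate in multi-well plates; whether the sequenced replicates came from independent experiments is not stated for these libraries, so p-values measure the spread between these samples. Groups came from the labels. A line without a gene was dropped; 93.1% of identifiers had a symbol.

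Log2(TPM + 1) of genes with mean TPM of at least 1 was fitted with limma 3.58.1 (R 4.3.3; lmFit, eBayes with trend) on the 6 samples, on the 6 CAY10566 samples, on those 12 with an interaction, and on 9 DMSO samples for control comparisons. Calls needed an FDR under 0.05 and a fold over 1.25. Intervals are 95%; 3 against 3 cannot reach an exact permutation p under 0.1, so single genes were not permuted. The procedure was first tested on simulated data. Figures used matplotlib 3.10.9.

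The comparison, the 25 gene lists and the tests were chosen with earlier results of these data known. Named genes were the 10 largest rises and falls among called genes with mean TPM of at least 5, no overlap and a symbol, genes the study names (DDIT3, ATF4, ATF6, XBP1, ERN1, EIF2AK3, H2AX and SCD) and the 2 largest differences per list; list members beyond these, and genes given under other observations, were chosen after their values were seen. Some genes are not reported here singly. Alternatives were a pseudocount of 0.1, no filter, mean TPM of at least 5, no trend, size factors, a replicate block, each sample left out, all 18 samples and removal of length and GC trends (splines with 3 degrees of freedom).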

Additional observations from a re-analysis of the deposited data

How the results depend on the processing

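Depth is unknown in TPM, and with 3 samples against 3 genes that were not called may still differ. For stearate+DMSO against oleate+DMSO (114 higher, 399 lower), size factors gave 190 higher genes, the replicate block 38 and 123, no filter 50 and 175, and no trend 64 and 221; 36 and 122 of the block's calls, 44 and 165 of those without a filter and 60 and 204 of those without a trend were among the main calls. With 1 library left out, 38 to 79 genes were higher and 127 to 333 lower; fewer samples and, without a filter, more tested genes are part of these settings, and otherwise the cause was not tested. The other settings stayed within 1.5 times of both counts. With CAY10566 (58 and 283), the block gave 9 and 66, and 1 library left out 15 to 27 and 89 to 204. The interaction, run with size factors, with the replicate block and with 1 library left out, stayed at 0 calls except without oleate+DMSO replicate 2 (RNVU1-15) and without oleate+DMSO replicate 3 (SEPTIN14P2 and ENSG00000251668), so its counts with 1 library left out ran from 0 to 2 in one direction and were 0 in the other. Against DMSO, size factors moved stearate from 899 and 262 to 398 and 448, and oleate from 1906 and 112 to 840 and 418; with 1 library left out the counts ran from 337 to 1281 and 147 to 255 for stearate and from 1269 to 1988 and 75 to 124 for oleate. The count for stearate fell to 337 without stearate+DMSO replicate 1 and rose to 1281 without stearate+DMSO replicate 3.

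The replicate numbers were not taken to pair the samples: deviations from the group means of same-numbered stearate and oleate samples correlated at -0.032, -0.013 and -0.041, and the labels tie them to no shared batch. Of 70 named genes, 41 were called; 41 stayed called with size factors or a pseudocount of 0.1, 40 with mean TPM of at least 5, 39 in the fit of 18 samples, 37 without length and GC trends, 32 without trend, 31 with the replicate block, 28 without a filter and 27 to 31 with 1 library left out. Among these genes the sign turned only for MT-ND5, which was not called, without oleate+DMSO replicate 1 (0.018; -0.38 to 0.018 with 1 library left out). List medians near 0 also turned: DNA replication, lipid droplets and phospholipids with size factors; ribosomal proteins, cytokines, desaturation and mitochondrial mRNAs without length and GC trends; desaturation with mean TPM of at least 5; and DNA replication, Golgi, SREBP regulators, desaturation, cytokines and mitochondrial mRNAs with 1 library left out (mitochondrial mRNAs from 0.026 to -0.19 without oleate+DMSO replicate 3).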

Other observations

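Further called genes outside the lists were chosen after their values were seen, and are given as values. UGCG, the enzyme that makes glucosylceramide from ceramide, had a mean of 43.8 TPM with stearate, 90.4 TPM with oleate and 64.4 TPM in the controls, with a log2 difference between the fatty acids of -1.03 (limma, adjusted p = 0.000848) and of -0.95 in the CAY10566 samples. ALDH1A3, a retinaldehyde dehydrogenase, showed the same order, with 85.5, 169.9 and 123 TPM and a log2 difference of -0.98 (limma, adjusted p = 0.000875). AKAP12, an anchoring protein of protein kinase A, was at 66.2, 141 and 93.1 TPM, with a difference of -1.08 (limma, adjusted p = 0.00089). EGFR, the receptor of epidermal growth factor, was at 61.2 TPM with stearate, near the 65.1 TPM of the controls, and at 97.8 TPM with oleate, a difference of -0.67 (limma, adjusted p = 0.00588). The integrin subunit ITGA2 (-0.74), the matrix protein THBS1 (-0.71) and the membrane protein EMP1 (-0.73) were likewise near the control level with stearate and higher with oleate. MB, which encodes myoglobin, was at 15.5 TPM with stearate, 33.2 TPM with oleate and 37.9 TPM in the controls, a difference of -1.06 (limma, adjusted p = 0.00265).

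Among abundant transcripts called higher, LCN2, the siderophore-binding protein lipocalin 2, was at 2606 TPM with stearate, 1843 TPM with oleate and 2161 TPM in the controls, a log2 difference of 0.50 (limma, adjusted p = 0.000629). SQSTM1, the autophagy receptor p62, was at 1458, 1082 and 993 TPM in the same order, a difference of 0.43 (limma, adjusted p = 0.00154). ICAM1, an adhesion molecule for leukocytes, was at 421, 302 and 269 TPM, a difference of 0.48 (limma, adjusted p = 0.00127). IDH1, the cytosolic isocitrate dehydrogenase, was at 53.9, 38.1 and 44.5 TPM, a difference of 0.49 (limma, adjusted p = 0.00405). The differences of LCN2, ICAM1 and IDH1 were also called in the CAY10566 samples, at 0.44, 0.40 and 0.51, whereas that of SQSTM1 was 0.26 there and under the fold limit.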
